A study of Mus musculus with 4 samples.

Results

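The 9 genes described here make, store, take back or break down monoamines. They were chosen by name, from knowledge of the pathway and not by a cut on their values, but with earlier results of these data known. Each name was found as a row among the 42458 rows of the count table. The group holds the decarboxylase gene Ddc, the hydroxylase genes Th, Tph2 and Dbh, the cofactor gene Gch1, the transporter genes Slc18a2 and Slc6a4, and the oxidase genes Maoa and Maob. The series has 1 group of 4 libraries, each from 50 cells of the spinal cord of a single C57BL6 mouse, so levels and their spread between mice can be given but no treatment was compared. Every mouse had received the virus AAV2-CAG-tdT into a brain ventricle, in which the broadly active CAG promoter drives the red fluorescent protein tdTomato, and live tdTomato-positive cells were sorted from dissociated tissue around the central canal as a preparation enriched in CSF-cNs, the neurons that contact the cerebrospinal fluid. An uninjected C57BL6 preparation set the sort and is not analysed here. The age of the mice is not given in the sources used here. Values in lists follow the order mouse 1, 2, 3 and 4.

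Catecholamines are made from tyrosine by tyrosine hydroxylase (Th) and serotonin from tryptophan by tryptophan hydroxylase (Tph2 in neurons), and in both routes Ddc, the aromatic L-amino acid decarboxylase, then removes the carboxyl group to give dopamine or serotonin. The hydroxylases need tetrahydrobiopterin, whose synthesis starts with Gch1, and Ddc needs pyridoxal phosphate. The vesicular transporter Slc18a2 (VMAT2) loads the amines into vesicles, Slc6a4 takes serotonin back into cells, Dbh turns dopamine into noradrenaline, and Maoa and Maob oxidise the amines. Cells at the spinal central canal that hold the decarboxylase without the hydroxylases have long been known as D cells, and Ddc can also form trace amines directly from amino acids.

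The libraries held 83007030 to 115479640 counts and differed in their cell type markers. In CPM, counts scaled by TMM to a common library total, the tdTomato row stood at 0.0463, 0.621, 157 and 1709 CPM, a value that is uncertain because a further construct row carries tdT in its name. The 9 CSF-cN markers summed to 20.3, 12.9, 941 and 846 CPM, with 1, 1, 8 and 5 of them at 10 CPM or more, and P2rx2 among them had no count in any library. The libraries of mice 1 and 2 therefore stand apart from their label, and results below are also given for mice 3 and 4 alone. Markers of microglia, the immune cells of the nervous system, were high in all 4 libraries (10 of 10 genes at 10 CPM or more, summed level 35290 to 57655 CPM). Oligodendrocyte markers summed to 15065, 238, 19260 and 459 CPM, astrocyte markers to 1253, 161, 1349 and 299 CPM, and pan-neuronal markers to 129, 87.7, 1072 and 393 CPM. The remaining lists summed to at most 78.8 CPM for ependymal, 23.1 CPM for endothelial, 0.157 CPM for mural and 51.2 CPM for platelet markers, and to 994 CPM for fibroblast markers in mouse 3, where Dcn gave 989 CPM. In bulk libraries, fewer cells of a type and less RNA per cell cannot be told apart.

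**Figure D1:**
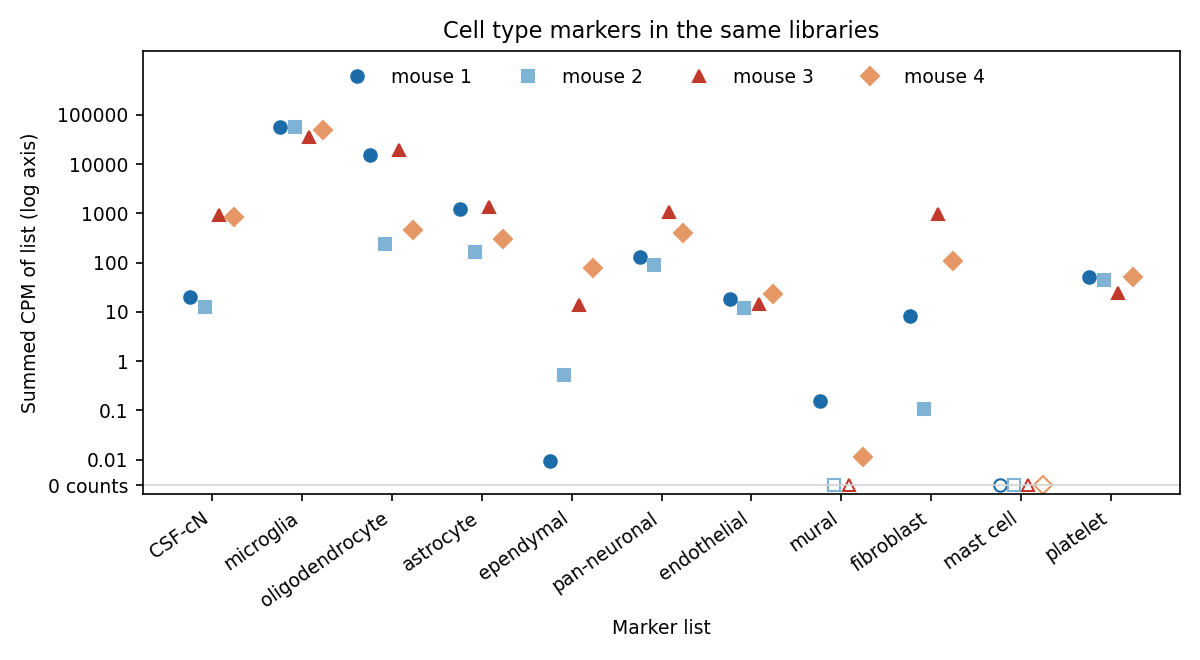
Summed CPM (log axis) of 11 marker lists in each library, 1 symbol per mouse, with open symbols for sums of 0 counts. The CSF-cN list reached 941 and 846 CPM in mice 3 and 4 against 20.3 and 12.9 CPM in mice 1 and 2, and the oligodendrocyte list was higher in mice 1 and 3.

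Of the 9 monoamine genes, 5 had counts (Ddc, Slc18a2, Gch1, Maoa and Maob) and 4 had none in any library (Th, Tph2, Dbh and Slc6a4). Over all 42458 rows, 49.8% had a count in at least 1 library and 29.7% in each of the 4; of the 9 genes, Ddc, Slc18a2, Gch1 and Maoa had a count in each. The 5 genes with counts had different patterns across the mice: Ddc was high in mice 3 and 4, Maoa in mice 1 and 3, Maob in mouse 3 alone, and Gch1 was lowest in mouse 1, while Slc18a2 varied by less than 2-fold. Summed over the 9 genes, the level was 48.3, 22.1, 132 and 68.1 CPM.

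Levels were tested against 10 CPM with the quasi-likelihood test of edgeR, for genes with 10 counts or more in total. None of the 5 tested genes was called above or below that level. Of all 18522 tested genes 36.7% were called above and 0.664% below 10 CPM. At an unadjusted p under 0.05, 0 of the 5 genes passed, against 38.7% of all tested genes above and 4.58% below. The median log2 level relative to 10 CPM was 0.20 over the 5 genes and -0.07 over all tested genes. limma-voom, a test of mean log values, called 0 of the 5 above (35.9% of all tested genes) and 1, Maob, below 10 CPM (33.3%). DESeq2 called 0 above (33.2%) and 0 below (11%) and gave no adjusted p for Maob. The large spread between mice entered each of these tests.

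**Figure D2:**
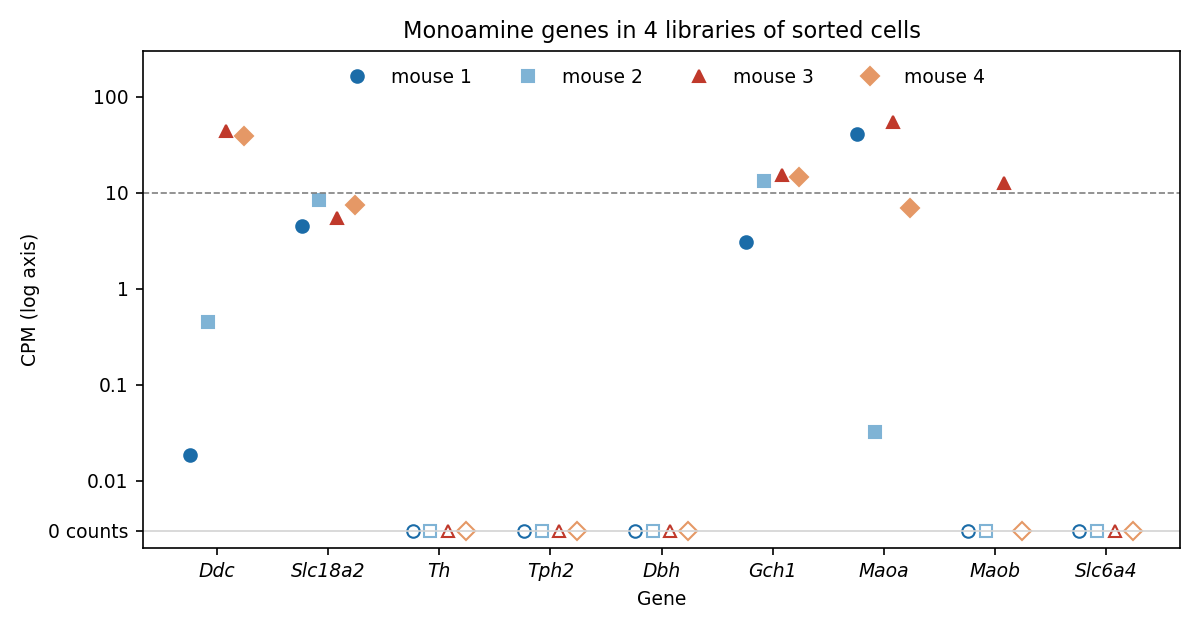
CPM (log axis) of the 9 genes in each library, 1 symbol per mouse, with open symbols on the lowest line for 0 counts and a dashed line at 10 CPM. Ddc reached 43.9 and 39.2 CPM in mice 3 and 4, Slc18a2 stayed between 4.46 and 8.28 CPM, and Th, Tph2, Dbh and Slc6a4 lie on the line of 0 counts in all 4 libraries.

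Ddc, the shared decarboxylase, had 2, 42, 3783 and 3517 counts, or 0.0185, 0.449, 43.9 and 39.2 CPM. Its values in mice 3 and 4 lay close together and far above those in mice 1 and 2. The 95% Clopper-Pearson intervals, which cover counting error only, were 42.5 to 45.3 CPM in mouse 3 and 37.9 to 40.5 CPM in mouse 4. Mouse 3 exceeded mouse 2 by 97.6-fold (counting interval 72.0 to 136) and mouse 4 exceeded mouse 2 by 87.2-fold (64.4 to 121). Against mouse 1, with 2 counts, the ratio of mouse 3 was 2368 with a counting interval of 655 to 19558. Between the 2 sequencing runs of a mouse, Ddc had 1882 and 1901 counts in mouse 3 and 1832 and 1685 in mouse 4. Over 4 mice the mean was 20.9 ± 23.9 CPM (SD, n = 4), and the log2 level relative to 10 CPM was 1.06 (SE 1.11, edgeR adjusted p = 0.45). In mice 3 and 4 alone, a choice made after the data were seen, edgeR called Ddc above 10 CPM (log2 2.12, SE 0.21, adjusted p = 0.0017), with 37% of the 17182 genes tested there called above. That call follows from keeping the libraries in which Ddc was high.

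The Ddc gene (ENSMUSG00000020182.16) spans bases 11814101 to 11898144 of chromosome 11, minus strand, in build GRCm38, and its counts come from its exons. RefSeq lists a pair of start sites for it, and the deposited counts are summed over both, so the start in use in these cells cannot be told from them. The 250 bases before each start are shown because Ddc was high in the libraries with CSF-cN markers, and those markers include the factor genes Gata2 (0, 0.0107, 24.2 and 5.65 CPM) and Gata3 (0, 0, 16.2 and 7.38 CPM). The sequences come from RefSeq on GRCm38.p6, read 5′ to 3′ on the minus strand at chr11:11898145-11898394 (upstream start) and chr11:11890409-11890658 (downstream start), with that of Slc18a2 on the plus strand at chr19:59260628-59260877 for comparison.
Ddc upstream start: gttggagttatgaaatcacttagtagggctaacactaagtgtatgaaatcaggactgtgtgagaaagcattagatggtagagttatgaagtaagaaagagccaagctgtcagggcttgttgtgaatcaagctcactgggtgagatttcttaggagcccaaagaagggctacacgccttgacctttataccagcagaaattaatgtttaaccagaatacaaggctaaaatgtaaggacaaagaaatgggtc
Ddc downstream start: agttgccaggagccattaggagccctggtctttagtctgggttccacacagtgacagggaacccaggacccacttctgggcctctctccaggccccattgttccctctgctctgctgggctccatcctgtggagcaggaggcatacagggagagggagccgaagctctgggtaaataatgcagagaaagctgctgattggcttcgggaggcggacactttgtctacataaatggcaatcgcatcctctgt
Slc18a2: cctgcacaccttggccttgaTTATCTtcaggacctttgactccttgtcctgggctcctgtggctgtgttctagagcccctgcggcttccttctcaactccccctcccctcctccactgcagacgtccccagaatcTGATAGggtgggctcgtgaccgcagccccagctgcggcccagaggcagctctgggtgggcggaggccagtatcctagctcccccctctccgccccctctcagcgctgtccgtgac
Capitals mark GATA-type letters, searched as AGATAA or as AGATAG, and likewise as TGATAA or as TGATAG, on both strands. Neither Ddc window holds any of them, which says only that these letters are not in these windows. The Slc18a2 window holds TTATCT, an antisense match that begins 230 bases before the start, and TGATAG, a sense match that begins 115 bases before it. Over all 32851 windows of 250 bases, 26.5% hold at least 1 match and 6.40% hold 2 or more. Windows were found for 8 of the 9 genes (9 windows), and those of Tph2, Gch1, Maoa and Slc6a4 hold 1 match each.

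The genes nearest to Ddc in pattern were ranked by the root mean square difference of centred log2(CPM + 1) over the 4 libraries, among 9124 other genes whose mean reached 10 CPM. This order describes 4 values per gene that share the same libraries. The 8 nearest were Fstl5, Syt1, Elmod1, Hoxa9, Krt90, Fgf12, Nrsn1 and Mgat4c, with differences from 0.19 to 0.22 on the log2 scale. Fstl5 stood at 0.00926, 0.0107, 33.2 and 34.0 CPM. Syt1, the calcium sensor of synaptic vesicle release, stood at 0.0370, 0.0642, 44.6 and 35.1 CPM. Hoxa9, a gene of posterior body position, stood at 0.0185, 0.0107, 34.3 and 28.5 CPM. Syt1 is also one of the pan-neuronal markers. All 8 genes were high in mice 3 and 4 and at most at 0.182 CPM in mice 1 and 2, as the ranking by likeness to Ddc itself sets. Of the CSF-cN markers, Myo3b was 68th, Pkd1l2 78th and Pkd2l1, the channel gene that defines these cells (17.9, 0.193, 664 and 690 CPM), 319th in this order. The other CSF-cN markers had means under 10 CPM and were not ranked. Of the further pan-neuronal markers, Stmn2 was 124th, Snap25 136th, Elavl4 157th, Tubb3 202nd, Uchl1 577th and Elavl3 668th. The fibroblast marker Dcn was 261st, also before Pkd2l1. The part of the CSF-cN and neuronal markers in the Ddc values was not tested.

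**Figure D3:**
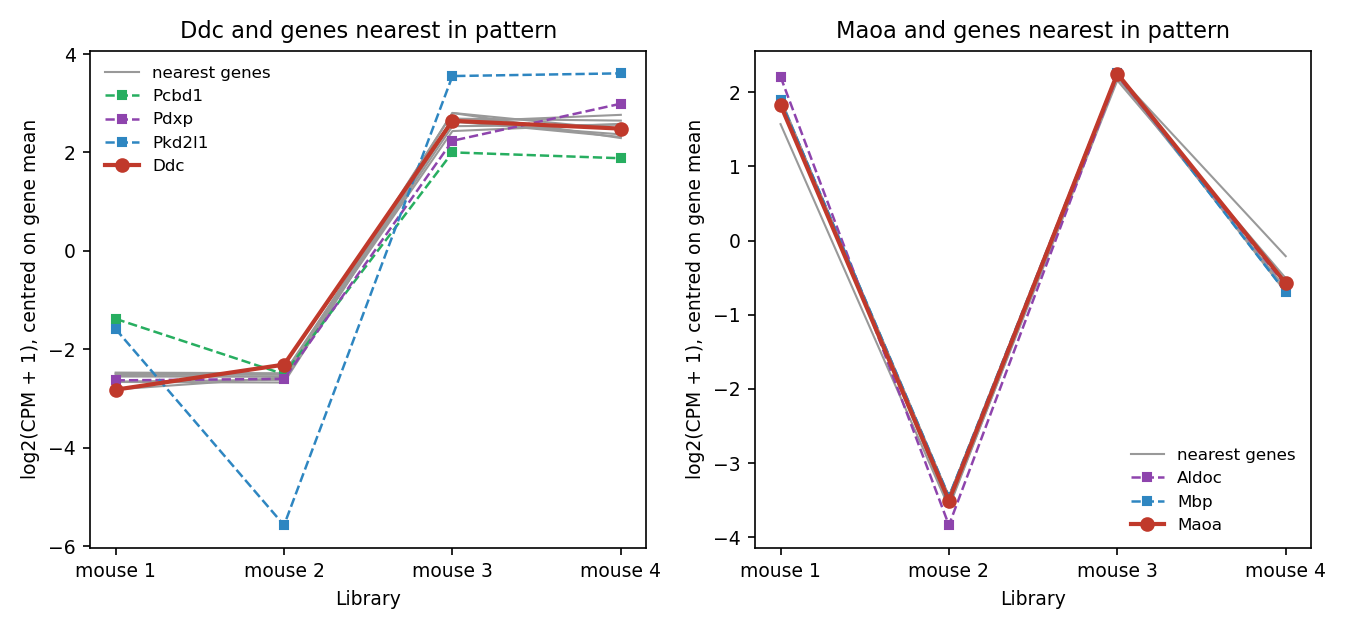
Centred log2(CPM + 1) in each library for Ddc (left) and Maoa (right) in red, with the genes nearest to each in pattern in grey and named pathway or marker genes dashed; lines join the values of a gene and do not stand for an order of the mice. Ddc, Pdxp and Pcbd1 are high in mice 3 and 4, and Maoa and Mbp nearly coincide on this scale. The added 1 compresses the low value of Maoa in mouse 2 (0.0321 CPM) far more than that of Mbp (31.3 CPM).

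The hydroxylase genes on both sides of Ddc were without counts. Their genes lie on chromosomes 7 (Th), 10 (Tph2) and 2 (Dbh). Th, the first enzyme of catecholamine synthesis, Tph2, that of serotonin synthesis in neurons, and Dbh, which makes noradrenaline, had 0 counts in each of the 8 sequencing runs. The limit taken for a count of 0 was 3 counts per library, or 0.0278, 0.0321, 0.0348 and 0.0334 CPM, and the upper ends of the 95% Clopper-Pearson intervals were 0.0342, 0.0395, 0.0428 and 0.0411 CPM. In mice 3 and 4 both limits lie far below the 43.9 and 39.2 CPM of Ddc in the same RNA. They cover read depth only, and not which cells were sorted or which transcripts were captured. Tph1, the tryptophan hydroxylase of other tissues, had a single count, in mouse 4. Pnmt, which makes adrenaline, had no count. Slc6a4, the serotonin reuptake transporter, was also at 0 in all libraries, as were the noradrenaline and dopamine transporter genes Slc6a2 and Slc6a3.

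Gch1, which codes for GTP cyclohydrolase, was present in every library at 3.06, 13.4, 15.1 and 14.6 CPM. Mouse 1 was the low value, and mice 2, 3 and 4 lay close together, so Gch1 did not share the pattern of Ddc. Mouse 3 exceeded mouse 1 by 4.95-fold (counting interval 4.38 to 5.60) and mouse 2 by 1.13-fold (1.05 to 1.22). The 2 runs of mouse 2 differed by 12.7% of their mean for Gch1, a spread that the counting interval does not cover. The mean was 11.5 ± 5.69 CPM (SD, n = 4; log2 level 0.20, SE 0.48, edgeR adjusted p = 0.73). The Gch1 gene (ENSMUSG00000037580.10) spans bases 47153895 to 47189413 of chromosome 14, minus strand, and a pair of processed pseudogenes that lie within its span share no exon with it. The genes nearest to it in pattern were Myo18a, Pafah1b3, Rfc5 and Aurkaip1, for example Myo18a at 8.54, 29.9, 33.4 and 33.1 CPM.

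The later steps of tetrahydrobiopterin supply had counts as well. All 7 genes of that list were tested and 2, Pts and Qdpr, were called above 10 CPM by edgeR, beside 36.7% of all tested genes. Pts, the next synthetic enzyme, had a mean of 97.4 ± 22.3 CPM and Qdpr, which regenerates the cofactor, 118 ± 39.2 CPM (SD, n = 4). Spr, the last enzyme of the synthesis, stood at 12.1, 8.24, 22.4 and 21 CPM and was not called (edgeR adjusted p = 0.19). Pcbd1, a dehydratase that recycles the cofactor, stood at 1.2, 0.0107, 22 and 20.1 CPM. Its 130, 1, 1895 and 1808 counts make it low in mice 1 and 2 and high in mice 3 and 4, as for Ddc, and it was 100th among the 9124 genes in likeness to Ddc. Pcbd1 was not called over the 4 mice (log2 level 0.12, SE 1.16, edgeR adjusted p = 0.94) or in mice 3 and 4 alone (adjusted p = 0.060). Gchfr, which codes for the feedback regulator of Gch1, had counts in mouse 3 alone, at 0.580 CPM.

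Genes that supply or remove pyridoxal phosphate, the cofactor of Ddc, divided in the same way. Of 4 tested genes, edgeR called 2 above 10 CPM (36.7% of all tested genes), among them Plpbp, which binds the cofactor (39.7 ± 12.9 CPM, SD, n = 4). Pdxk, the kinase, stood at 17.0, 12.2, 8.57 and 23.3 CPM and was not called (edgeR adjusted p = 0.22). Pdxp, the phosphatase that breaks the cofactor down, had 0, 2, 2430 and 4323 counts, or 0, 0.0214, 28.2 and 48.2 CPM. It was low in mice 1 and 2 and high in mice 3 and 4, and was 33rd in likeness to Ddc. Over the 4 mice Pdxp was not called (log2 level 0.93, SE 1.36, edgeR adjusted p = 0.58), and in mice 3 and 4 alone it was (2.0 on the log2 scale, adjusted p = 0.0044), a call that again follows from the choice of libraries.

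Slc18a2, the vesicular monoamine transporter, was the most even of the 5 genes, with 482, 774, 465 and 670 counts, or 4.46, 8.28, 5.39 and 7.47 CPM. The SD of its log2(CPM + 1) was 0.35, against 0.96 for Gch1, 1.88 for Maob, 2.65 for Maoa and 2.97 for Ddc. Mouse 2, where Ddc was at 0.449 CPM, had the highest value, 1.86-fold above mouse 1 (counting interval 1.65 to 2.08). The runs of a mouse differed by 5.73% to 15.0% of their mean for this gene, and over 14 values of the 5 genes with at least 100 counts the median difference was 7.39%. The mean was 6.40 ± 1.78 CPM (SD, n = 4), which was not separated from 10 CPM (log2 level -0.64, SE 0.58, edgeR adjusted p = 0.39). In mice 3 and 4 alone it was not called either (adjusted p = 0.61).

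The Slc18a2 gene (ENSMUSG00000025094.8) spans bases 59260896 to 59296012 of chromosome 19, plus strand, and shares 111 exonic bases with the antisense gene Gm29261. The libraries do not keep the strand, so reads of that stretch cannot be told apart. The genes nearest to it in pattern were Cdk4, Cebpzos, Ick and Rnh1, with Cdk4 at 65.0, 113, 76.9 and 101 CPM. Mast cells and platelets are also known to hold Slc18a2. All 6 mast cell markers had 0 counts in the 4 libraries. The 5 platelet markers summed to 51.1, 45.0, 23.8 and 51.2 CPM, of which Gp9 gave 36.5, 33.0, 17.7 and 33.6 CPM, while Ppbp had no count. The microglia markers, with 10 of 10 genes at 10 CPM or more in each library, summed to 55659, 57655, 35290 and 49259 CPM, and their part in the Slc18a2 values was not tested.

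The other amine transporters differed in level and pattern. Of 8 genes, 3 had no count, where 49.8% of all rows had one, and 5 were tested. edgeR called 0 above or below 10 CPM (36.7% and 0.664% of all tested genes). At an unadjusted p under 0.05, 1 was below (4.58% of all tested genes). limma-voom called 0 above and 3 below (35.9% and 33.3% of all tested genes). DESeq2 called 0 above and 1 below (33.2% and 11%), with no adjusted p for 3. Slc18b1, a vesicular polyamine transporter, stood at 8.19, 13.1, 15.9 and 18.6 CPM. Slc29a4, the plasma membrane monoamine transporter, stood at 0.00926, 0, 5.26 and 19.3 CPM, so its counts came nearly all from mice 3 and 4. The organic cation transporter genes Slc22a2 and Slc22a3 had counts in mouse 3 alone, at 1.51 and 1.95 CPM. Slc18a1, the vesicular transporter of endocrine cells, did not exceed 0.111 CPM.

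Maoa, the monoamine oxidase with a preference for serotonin and noradrenaline, had 4398, 3, 4743 and 618 counts, or 40.7, 0.0321, 55.0 and 6.89 CPM. Mice 1 and 3 were high, mouse 4 was lower and mouse 2 was at the limit that a count of 0 allows. Mouse 3 exceeded mouse 4 by 7.98-fold (counting interval 7.34 to 8.70), and against the 3 counts of mouse 2 the ratio was 1712 (586 to 8307). Its values did not follow those of Ddc: mouse 1, with 2 counts of Ddc, had more Maoa than mouse 4. The mean was 25.7 ± 26.4 CPM (SD, n = 4; log2 level 1.36, SE 0.90, edgeR adjusted p = 0.28). Without mouse 2, edgeR called Maoa above 10 CPM (log2 level 1.78, adjusted p = 0.026), and in mice 3 and 4 alone it did not (adjusted p = 0.11).

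The gene nearest to Maoa in pattern was Fam57a (41.4, 0.0428, 51.5 and 6.27 CPM), followed by the myelin basic protein gene Mbp (1312, 31.3, 1690 and 217 CPM), Eml2 and P4htm. The likeness to Mbp rests on the 1 CPM added before the log, which compresses low values. As a plain ratio of mouse 3 to mouse 2, Maoa fell much further than Mbp. The 10 oligodendrocyte markers summed to 15065, 238, 19260 and 459 CPM, with 9, 5, 9 and 5 of them at 10 CPM or more. The astrocyte marker Aldoc, at 835, 11.6, 846 and 118 CPM, also had its high values in mice 1 and 3, as did S100b (298, 4.2, 440 and 10.5 CPM). Other astrocyte markers did not: Slc1a3 stood at 115, 122, 52.1 and 155 CPM, Gfap was highest in mouse 2 (23.4 CPM), and Gja1 and Aqp4 were highest in mouse 4 (10.8 and 5.45 CPM). The part of these cell types in the Maoa values was not tested.

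Maob, the oxidase with a preference for phenylethylamine, had 1078 counts in mouse 3 (568 and 510 in its 2 runs) and 0 in each other library. Its level in mouse 3 was 12.5 CPM (counting interval 11.8 to 13.3), at least 374-fold higher than the 3 counts allowed by 0 in mouse 4. That limit covers read depth only. Among the 9162 genes at 10 CPM or more in mouse 3, Maob was 1 of 27 with at most 3 counts in each other library. The corresponding numbers were 7 for mouse 1, 4 for mouse 2 and 13 for mouse 4. Its mean was 3.12 ± 6.25 CPM (SD, n = 4; log2 level -1.68, SE 2.49, edgeR adjusted p = 0.58), and limma-voom called it below 10 CPM (adjusted p = 0.012). Maoa and Maob are neighbours on chromosome X, Maoa (ENSMUSG00000025037.6, plus strand) at bases 16619698 to 16687818 and Maob (ENSMUSG00000040147.14, minus strand) at bases 16709282 to 16817366, with 21463 bases between them. In mouse 1 the 4398 counts of Maoa stood beside 0 of Maob.

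Downstream of the oxidases come the genes for aldehyde clearance. Of 8 genes, 7 were tested and edgeR called 6 above 10 CPM, beside 36.7% of all tested genes, with a median log2 level of 2.77 against -0.07 over all tested genes. Akr1a1, an aldehyde reductase, had a mean of 473 ± 76.2 CPM, Akr1b3 132 ± 18.4 CPM, Aldh9a1 86.6 ± 15.4 CPM and Aldh3a2 68.4 ± 5.07 CPM (SD, n = 4). Aldh2, which oxidises the aldehydes in mitochondria, was less even at 26.8, 34.6, 27.3 and 7.86 CPM, lowest in mouse 4, and was called by edgeR (adjusted p = 0.021) but not by DESeq2 (adjusted p = 0.073). Aldh1b1 stood at 1.76, 0.268, 3.40 and 0.0111 CPM and was not called (edgeR adjusted p = 0.27). In all, DESeq2 called 5 and limma-voom 6 above 10 CPM (33.2% and 35.9% of all tested genes). Of the other amine enzymes, 3 of 10 were tested. All 3 were called above 10 CPM by edgeR (36.7% of all tested genes), limma-voom (35.9%) and DESeq2 (33.2%). Among them were Hnmt, which methylates histamine (94.8 ± 30.7 CPM, SD, n = 4), and the sulfotransferase gene Sult1a1 (76.7 ± 26.2 CPM). The histidine decarboxylase gene Hdc did not exceed 0.0223 CPM, and Aanat and Asmt, which make melatonin, had no count.

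The 5 genes for uptake of precursor amino acids had counts in every library. All 5 were tested and edgeR called 3 above 10 CPM, beside 36.7% of all tested genes: Slc3a2 (336 ± 50.2 CPM, SD, n = 4), the heavy chain shared by several amino acid carriers, Slc7a8 (161 ± 51.1 CPM) and Slc43a2 (30.5 ± 1.48 CPM). Slc7a5, the light chain LAT1 that carries L-DOPA, stood at 9.32, 30.1, 12.4 and 11.0 CPM and was not called (edgeR adjusted p = 0.23), as was Slc16a10 at 2.53, 8.13, 2.04 and 10.3 CPM.

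**Figure D4:**
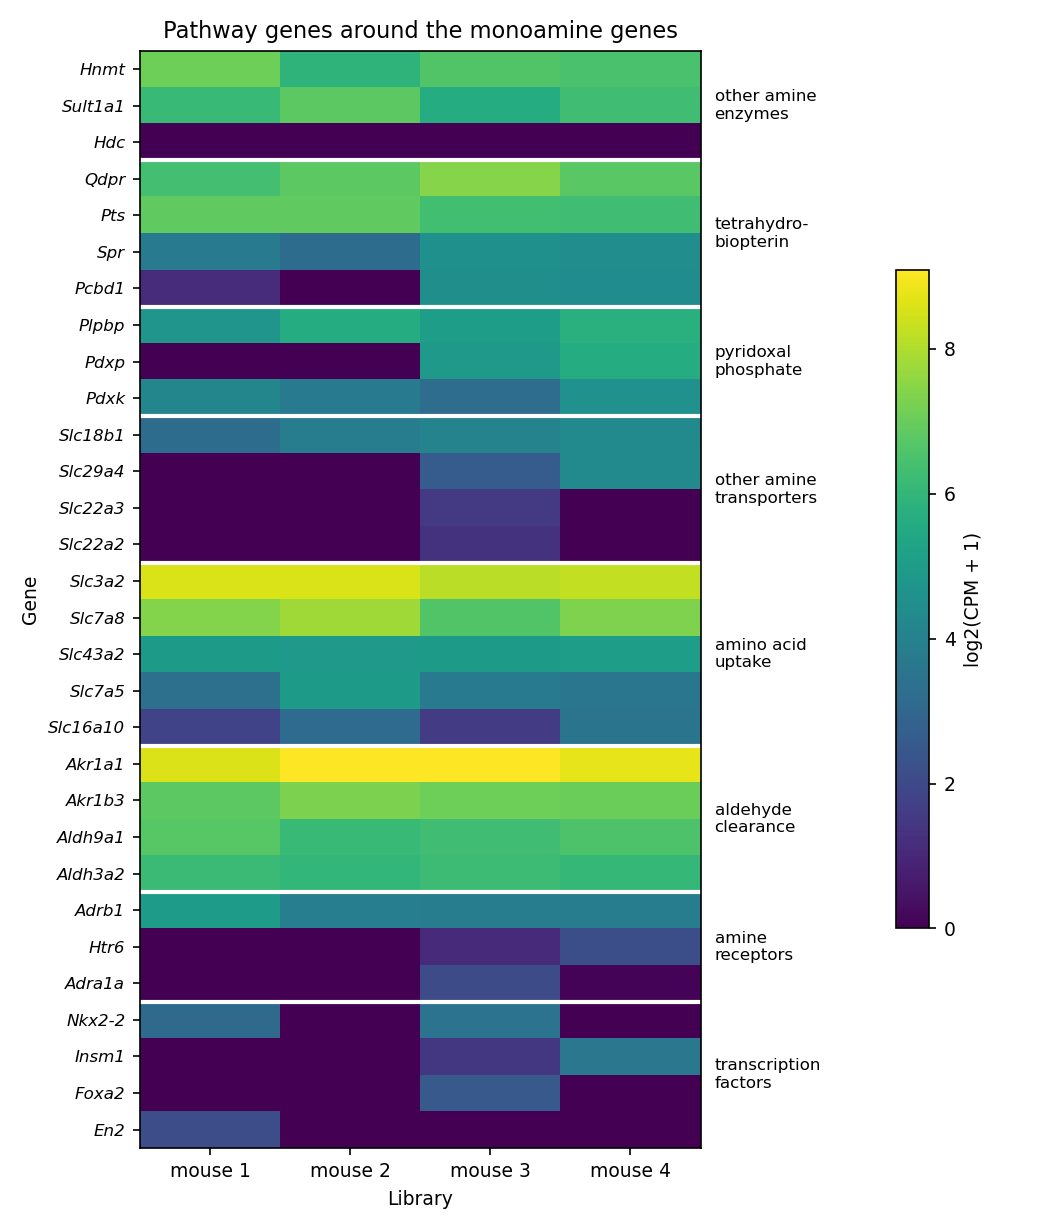
Colour gives log2(CPM + 1) of named genes of 8 pathway lists (rows, grouped at right) in the 4 libraries (columns). Pcbd1, Pdxp and Slc29a4 are low in mice 1 and 2 and higher in mice 3 and 4, and Hnmt, Pts, Slc3a2 and Akr1a1 are high in all 4.

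Of 27 receptor genes for monoamines, 16 had no count, where 49.8% of all rows had one. Those without a count included Drd1, Drd2, Drd3, Drd5, Htr1a, Htr2a and the trace amine receptor gene Taar1. edgeR tested 9 and called 1 above 10 CPM (36.7% of all tested genes) and 1 below (0.664%). The one below was Htr2b, which did not exceed 0.128 CPM (log2 level -7.66, SE 2.30, edgeR adjusted p = 0.041). Adrb1 stood at 31.5, 13.6, 13.5 and 13.4 CPM and was not called (edgeR adjusted p = 0.092). Htr6 had counts in mice 3 and 4 alone (1.10 and 3.55 CPM), and Adra1a stood at 0.0185, 0, 3.36 and 0.0557 CPM. limma-voom called 1 receptor gene above and 7 below (35.9% and 33.3% of all tested genes). DESeq2 called 1 above and 2 below (33.2% and 11%), with no adjusted p for 5.

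Of 12 transcription factor genes known from monoaminergic neurons, 7 had no count, where 49.8% of all rows had one. Those without a count included Fev and Lmx1b of serotonin neurons, Pitx3 of dopamine neurons and Phox2a of noradrenaline neurons. The 5 tested genes were not called above or below 10 CPM by edgeR (36.7% and 0.664% of all tested genes). At an unadjusted p under 0.05, 0 passed (38.7% above and 4.58% below over all tested genes). limma-voom called 0 above and 4 below (35.9% and 33.3% of all tested genes by that test). DESeq2 called 0 of either kind (33.2% above and 11% below), with no adjusted p for 3. Insm1, a factor of neuroendocrine and newborn neurons, stood at 0, 0, 1.79 and 11.1 CPM. Foxa2 stood at 0, 0, 4.78 and 0.0111 CPM, and Nkx2-2, which is also a gene of the oligodendrocyte lineage, at 7.88, 0.0214, 10.03 and 0.0111 CPM, with its higher values in mice 1 and 3.

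Levels of different genes were compared per kilobase of exon (RPKM). In mouse 1 the order was Maoa (9.77 RPKM), Slc18a2 (0.854), Gch1 (0.489) and Ddc (0.00415). In mouse 2 Gch1 (2.14 RPKM) and Slc18a2 (1.59) led, with Ddc at 0.101 and Maoa at 0.00770. Mouse 3 had Maoa (13.2 RPKM), Ddc (9.83), Maob (4.48), Gch1 (2.42) and Slc18a2 (1.03). In mouse 4 Ddc led (8.78 RPKM), before Gch1 (2.33), Maoa (1.65) and Slc18a2 (1.43). With exonic lengths, the gene with the highest level per length was thus Maoa in mice 1 and 3, Gch1 in mouse 2 and Ddc in mouse 4. The order of Maoa and Ddc in mouse 3 and that of Maoa and Slc18a2 in mouse 4 rest on the length used. Ddc has 4461 exonic bases but a longest transcript of 2018 bases, while Maoa has 4167 by both. Slc18a2 has 5225 exonic bases and a longest transcript of 4393 bases. Scaled by the longest transcript, Ddc would stand above Maoa in mouse 3, and Slc18a2 slightly above Maoa in mouse 4.

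**Figure D5:**
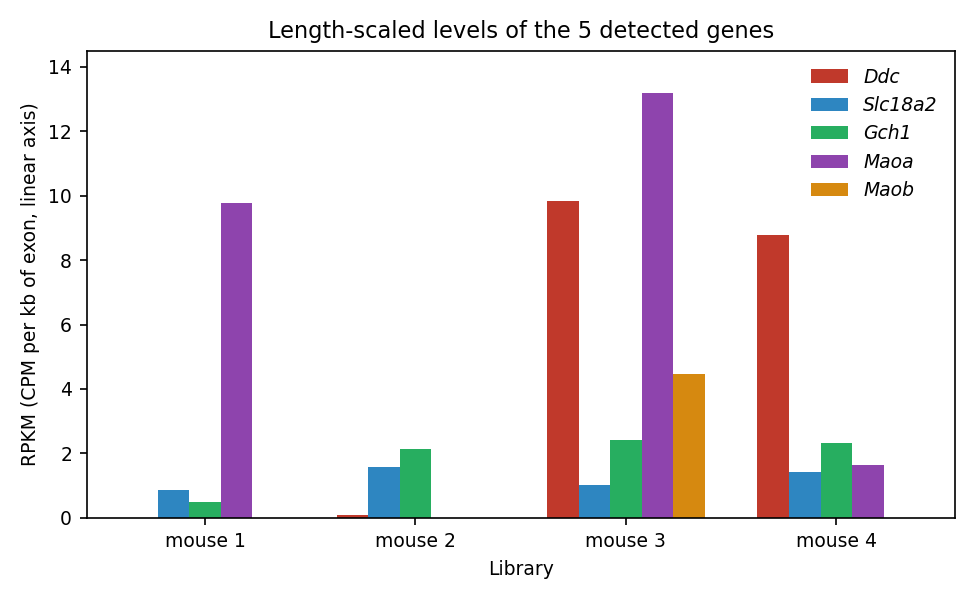
RPKM (linear axis from 0) of the 5 genes with counts in each library, 1 bar per gene and no error bars, since each bar is 1 library. With exonic lengths, Maoa is highest in mice 1 and 3 (9.77 and 13.2 RPKM), Gch1 in mouse 2 (2.14) and Ddc in mouse 4 (8.78). The order of Maoa and Ddc in mouse 3 and that of Maoa and Slc18a2 in mouse 4 depend on the length used.

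Within each mouse, 4 pairs were compared by the difference of log2(RPKM + 0.1), tested by flipping the sign of the difference in each mouse (exact permutation test, two-sided), with Benjamini-Hochberg adjustment over the 4 pairs. With 4 mice this test cannot give a p below 0.13, so no pair could pass 0.05. The added 0.1 RPKM limits the size of a ratio where a level lies near or below it. That applies to Ddc in mice 1 and 2 (0.00415 and 0.101 RPKM) and to Maoa in mouse 2 (0.00770 RPKM). Ddc over Slc18a2 was -3.20, -3.07, 3.13 and 2.54, a mean of -0.15 ± 3.45 (SD, n = 4; exact p = 0.88, adjusted 0.88), so the decarboxylase exceeded the vesicular transporter in mice 3 and 4 and was below it in mice 1 and 2. Ddc over Gch1 was -2.5, -3.48, 1.98 and 1.87 (mean -0.53 ± 2.87, exact p = 0.75, adjusted 0.88), with the same split. Slc18a2 over Maoa was -3.37, 3.97, -3.55 and -0.20 (mean -0.79 ± 3.53, exact p = 0.88, adjusted 0.88), positive in mouse 2 alone with exonic lengths. Its sign in mouse 4 rests on the length used. Maoa over Maob was 6.63, 0.11, 1.54 and 4.13 (mean 3.10 ± 2.88, exact p = 0.13, adjusted 0.5). Maob had no count in 3 of the mice, so that ratio could not turn negative there and its test is not read. In mouse 3, the library with both oxidases, Maoa was the higher.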

How the data were processed

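The deposited count table holds whole-number counts of the authors for each gene, with 2 columns per mouse, beside a table of log2 values. The submitters' processing notes name build mm10 and the tools STAR, RSEM, DESeq2, Trim Galore and FastQC; what each did, its version and the annotation are not given here. Per the labels, libraries came from SMART-Seq v4 and Nextera XT, which keep no strand and no molecular identifiers. From the values, the deposited log2 table is log2 of a mouse's summed counts over a size factor, plus 1; it was not used further. The columns of a mouse were taken as repeat runs by sample number and summed, giving 1 replicate per mouse; each mouse is a separate animal. 0 columns lacked a sample.

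CPM used TMM factors (0.935, 0.982, 1.04 and 1.05). Levels were tested against 10 CPM with edgeR 4.0.16 in R 4.3.3 as an intercept-only quasi-likelihood model for genes with at least 10 counts; the F test and its Poisson bound were computed from the fitted deviances, because the tool's test function takes no single-column design, and SE is the absolute log2 level divided by the root of F. Adjustment was by Benjamini-Hochberg over 18522 genes, threshold 0.05. The script was tested on simulated data. limma 3.58.1 and DESeq2 1.42.0 were alternatives, beside other scalings, filters, reference levels, runs, lengths, pseudocounts and left-out mice. Exonic lengths and positions come from GENCODE M21 (GRCm38, also called mm10). Python 3.11.15 and scipy 1.17.1 made the other tables. The floor is 3 counts and intervals are at 95%.

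The members, the 8 pathway lists and the 11 marker lists were chosen with earlier results of these data known. By rule, named genes are all members, the CSF-cN markers, the 4 genes of each pathway list with the highest mean CPM (all of a list of 5 or fewer), the 3 highest of each marker list, the tdTomato construct rows, and the 8 genes nearest in pattern to Ddc or the 4 nearest to each other member whose mean reached 1 CPM; of these the text names those that a result needs, and some genes of the lists are counted but not reported here. Ppbp, Tph1, Pnmt, Gchfr, Slc18a1, Slc6a2, Slc6a3, Aanat, Asmt, Htr2b, Aldh2, Aldh1b1, Gfap, Gja1, Aqp4 and the further genes with no count were named after their values were seen.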

Additional observations from a re-analysis of the deposited data

Results flagged for a closer look

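Sets of 4 values for members, named pathway genes and pairs were screened, 42 in all. In 10 the highest or lowest library stood apart. Its gap to the nearest other, as a share of the whole range, exceeded Dixon's 95% critical value. That value assumes a normal distribution, which CPM with many zeros do not meet, and 0 in all libraries but 1 always gives a gap of 1. Pathway genes were also picked by highest mean CPM, which 1 high library can set. The 10 are therefore a list, with no rate expected by chance beside it. Among them were 2 members. Gch1 stood apart through its low value in mouse 1 (3.06 CPM, next 13.4 CPM, a gap of 0.855 of the range), and Maob through mouse 3 (12.5 CPM against 0 in the others, 1 of the range). The transporter genes Slc22a2 and Slc22a3 (1.51 and 1.95 CPM) and the factor gene Foxa2 (4.78 CPM, next 0.0111 CPM) also stood apart through mouse 3, with gaps of 1, 1 and 0.998, as did Adra1a (3.36 CPM, next 0.0557 CPM, 0.983). Mouse 1 stood apart for Adrb1 (31.5 CPM, next 13.6 CPM, 0.986) and for En2 (3.41 CPM against 0, 1). Mouse 2 stood apart for Slc7a5 (30.1 CPM, next 12.4 CPM, 0.852) and mouse 4 for Insm1 (11.1 CPM, next 1.79 CPM, 0.839).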

How the results depend on the processing

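No paired analysis was possible because the series has 1 group. Among alternative values for single named genes, 539 kept their direction and their side of the threshold, 16 passed it newly, 1 lost it and 20 changed sign. DESeq2 size factors, plain library totals, single runs, filters at 1 or 50 counts and leaving out the numbered rows changed no gene's call.

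The count of members called above 10 CPM was 0 and became 1 (Maoa) without mouse 2, a range of 0 to 1 over left-out mice, and 1 (Ddc) in mice 3 and 4 alone, which was added after seeing the data; below 10 CPM limma-voom called 1. With a reference of 5 CPM, 1 other amine transporter and 2 monoamine receptors were called above. limma-voom turned the levels of Ddc (-2.62), Gch1 (-0.12), Maoa (-0.97), Pcbd1 (-2.64) and Pdxp (-4.20). Against 20 CPM the levels were -0.80 for Gch1, -0.33 for Spr, -0.88 for Pcbd1, -0.067 for Pdxp, -0.39 for Pdxk, -0.52 for Slc18b1, -0.35 for Slc7a5 and -0.15 for Adrb1, and against 5 CPM 0.36 for Slc18a2, 0.30 for Slc29a4 and 0.20 for Slc16a10, as the moved reference itself sets. Over left-out mice Pcbd1 ran from -0.50 to 0.54 (negative without mouse 3 or 4) and Pdxp from -0.12 (without mouse 4) to 1.38, and mice 3 and 4 alone gave Slc29a4 0.36.

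The mean of Ddc over Slc18a2 turned to 0.58 with log2(RPKM + 1), 0.38 with the longest transcript as length, 2.84 in mice 3 and 4 alone, and ran from -1.24 to 0.87 over left-out mice. Ddc over Gch1 turned to 0.28 with log2(RPKM + 1) and 1.92 in mice 3 and 4 alone, and ran from -1.37 to 0.45. Slc18a2 over Maoa ran from -2.37 to 0.13, and Maoa over Maob from 1.93 to 4.10. With log2(RPKM + 0.01) the means were -0.98 for Ddc over Slc18a2 and -1.37 for Ddc over Gch1. For Slc18a2 over Maoa that setting gave -0.22, and for Maoa over Maob 4.92. Exact p-values of the pairs could not pass 0.05 under any setting. Depth limits the lowest values: 3 counts or fewer (Ddc in mouse 1, Maoa in mouse 2) are not separable from 0.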
